A study of Homo sapiens with 13 samples.

Results

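The genes described here are 7 matrix metalloproteinases (MMP1, MMP2, MMP3, MMP10, MMP11, MMP14 and MMP16) and 3 tissue inhibitors of metalloproteinases (TIMP1, TIMP2 and TIMP3), which were chosen by name as the members of these families to follow in osteoblasts. They were chosen with earlier results of these data known, and make up 10 of the 43836 genes in the count table. mRNA was sequenced from hFOB 1.19, an immortalized human fetal osteoblast cell line, in 12 libraries of 5 groups. Positive control (PC) cells were grown with 10% fetal bovine serum (2 libraries), and negative control (NC) cells were starved of serum at 0% (2 libraries). Serum-starved cells were given 1 µg/mL of resveratrol (RES, 3 libraries) or of the anthocyanin peonidin-3-O-glucoside (POG, 3 libraries), and both controls carried the solvent DMSO. The remaining group received 1 µg/mL of a compound that the labels code as DEG (2 libraries), and its serum is not given in the sources used here. A further DEG sample is named in the labels and was not analysed here. All libraries come from the same line, and nothing in the labels says that libraries of a group were separate cultures. The p-values rest on the spread between libraries of a group, shared over all 5 groups, which may be technical. The comparisons ask how the mRNA of the proteases and of their inhibitors differed between these groups. Because the serum of DEG is not given, serum and compound cannot be told apart in its differences from other groups.

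MMPs are zinc-dependent endopeptidases that cut collagens, proteoglycans and other proteins around the cell, and most are made as inactive proenzymes that another protease must cut. TIMPs bind the active site of MMPs and block it, so that the turnover of a tissue's matrix depends on both families. In bone, osteoblasts make several MMPs and all 3 TIMPs listed here, and MMP14 is known for its part in collagen turnover in the skeleton.

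In the hg38 genome with GENCODE v44 annotation, MMP10 (chr11:102770502-102780628), MMP1 (chr11:102789401-102798160) and MMP3 (chr11:102835801-102843609) lie close together on the minus strand of chromosome 11, in a cluster with other MMP genes. The exons of MMP1 share 223 bases, and those of MMP3 share 32 bases, with WTAPP1 on the opposite strand, and the strand setting of the read counting was not given in the sources used here. Exons of MMP2 share 174 bases with another gene on the same strand, and those of MMP16 share 118 bases on the opposite strand. MMP2 (chr16:55389700-55506691), MMP11 (chr22:23768226-23784316) and MMP14 (chr14:22836560-22849041) are on the plus strand and TIMP2 (chr17:78852977-78925387) on the minus strand. TIMP3 lies at chr22:32801705-32863041 and TIMP1 at chrX:47582408-47586789, both on the plus strand. Their upstream sequences are printed because TIMP3 had the largest differences among the inhibitors and TIMP1 was the inhibitor whose level was most like it across the libraries. Each is the 200 bases that end 51 bases before the start of the gene in RefSeq (GRCh38.p14), at chrX:47582186-47582385 for TIMP1 and chr22:32801455-32801654 for TIMP3, on the plus strand from 5′ to 3′, and capitals mark GGGCGG or its reverse complement CCGCCC, the core of the GC box bound by SP-family factors.
TIMP1: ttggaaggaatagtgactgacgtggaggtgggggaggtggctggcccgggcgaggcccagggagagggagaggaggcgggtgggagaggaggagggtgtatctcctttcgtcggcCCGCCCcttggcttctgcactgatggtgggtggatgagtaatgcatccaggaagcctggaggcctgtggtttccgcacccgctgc
TIMP3: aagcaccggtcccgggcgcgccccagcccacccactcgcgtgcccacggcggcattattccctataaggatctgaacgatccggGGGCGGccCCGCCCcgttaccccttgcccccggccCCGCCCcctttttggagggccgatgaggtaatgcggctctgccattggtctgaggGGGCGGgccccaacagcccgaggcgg
The TIMP3 stretch holds 4 such matches and the TIMP1 stretch 1. Within the whole 250 bases before the start, the matches numbered 5 for TIMP3, 2 for TIMP1, 3 for MMP11, 1 for MMP14 and 0 for MMP10, and 42.6% of the 35116 promoters in the table held at least 1. The AP-1 motif TGAGTCA or TGACTCA was found in 0 of these 5 windows and in 4.20% of all promoters, searched on both strands in the same 250 bases. Only these exact letters were searched, and a near match such as TGAGTAA, which the TIMP1 stretch above holds, was not counted. The table matched 5 of the 10 genes, and MMP1, MMP2, MMP3, MMP16 and TIMP2 were not among them. The GC box was chosen for display after the sequences had been seen, and a match is a description of the letters only.

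The libraries held between 38464619 and 51416358 counted reads. The PC replicates differed from each other more than those of any other group, with a chi-square of 11.02 per gene, against 2.07 to 2.67 for replicate pairs of the other groups, where 1 is sampling noise. Of the osteoblast markers, COL1A1 averaged 2676 CPM (the read count of a gene relative to the size of its library, scaled by the trimmed mean of M-values, TMM), COL1A2 1229 CPM, SPARC 1071 CPM and RUNX2 47.8 CPM. Lower levels were found for ALPL at 4.54 CPM, SPP1 at 1.64 CPM and BGLAP at 1.25 CPM, and IBSP had 1 read in all libraries. Of the blood cell markers, CD3E had 0 reads, PTPRC averaged 0.0435 CPM and CD14 0.908 CPM. Of the endothelial markers, CDH5 averaged 0.0303 CPM and PECAM1 1.71 CPM, but TEK 43.9 CPM, a level near that of RUNX2. Of the osteoclast markers, CTSK averaged 10.9 CPM, OSCAR 1.92 CPM and ACP5 0.912 CPM, and CALCR had 8 reads in all.

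Of the 10 genes, 9 passed the filter on low counts and were tested among 17092 genes, and MMP10 did not. At a false discovery rate (FDR) under 0.05 in the edgeR exact test, 8 of the 9 differed between PC and NC, where 42.4% of all tested genes did. The test shared its dispersions over all 12 libraries, so the wider spread of the PC pair enters the p-values for PC only in part. P-values for PC can thus be too small, and those of comparisons without PC too large. With dispersions from PC and NC only, MMP14 lost its call (exact test FDR 0.322). The calls numbered 4 of 9 for RES against NC (11.2% of all genes), 6 of 9 for POG against NC (14.5%) and 4 of 9 for DEG against NC (9.63%). These 4 comparisons share the NC libraries. Because the genes were chosen with earlier results of these data known, the counts do not describe the MMP and TIMP families as a whole. The median log2 fold change of the 9 genes against NC was −0.14 in POG, −0.13 in PC, −0.04 in RES and −0.03 in DEG. Over all tested genes it was between −0.01 and 0.00 in each comparison.

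**Figure D1:**
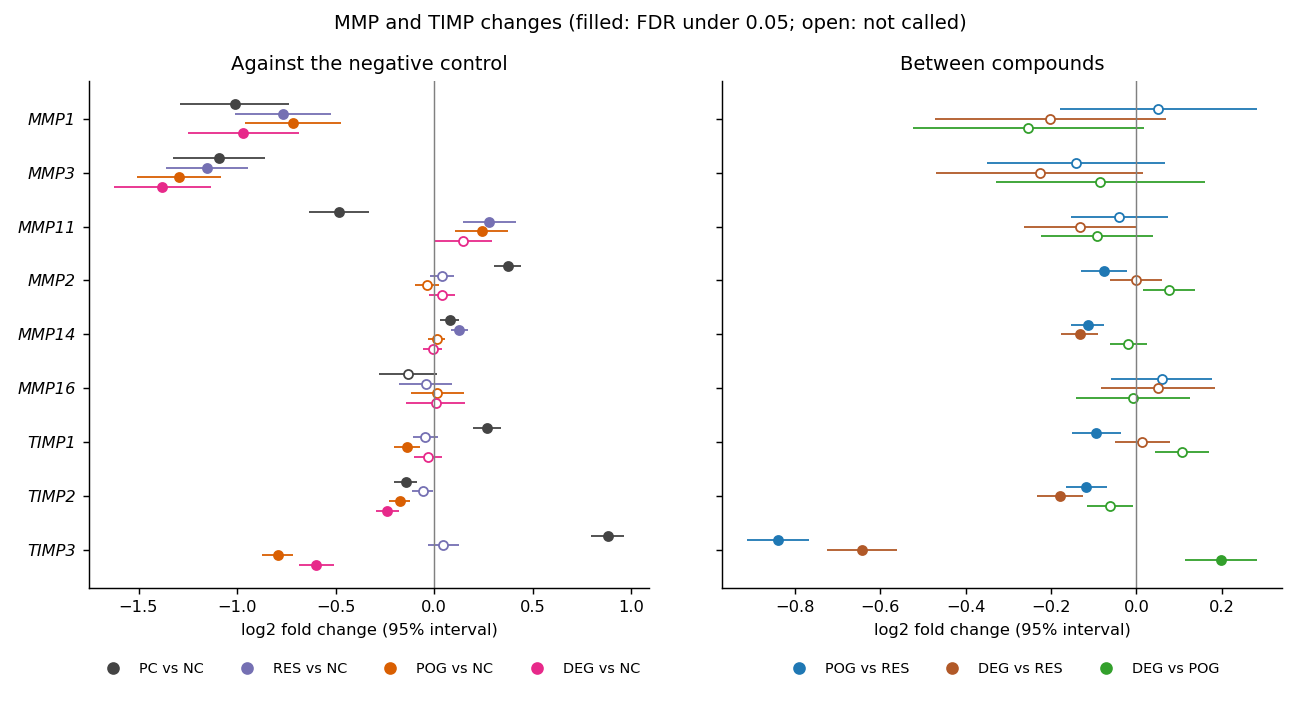
Log2 fold change of each tested MMP and TIMP (x axis) with its 95% interval from the quasi-likelihood fit, for PC and the compounds against NC on the left and between compounds on the right, where filled points are at an exact test FDR under 0.05. MMP1 and MMP3 lie between −1.38 and −0.72 in all 4 comparisons with NC, whereas TIMP3 is at 0.88 in PC, 0.05 in RES, −0.60 in DEG and −0.79 in POG.

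The genes differed widely in level. On a scale of CPM per kilobase of merged exons, averaged over the 12 libraries, MMP14 stood at 358, TIMP1 at 271, TIMP2 at 142, MMP2 at 56.3 and TIMP3 at 17.7. MMP11 at 4.14, MMP3 at 3.45, MMP1 at 2.48 and MMP16 at 1.91 followed, and MMP10 was at 0.0195. The ranges of MMP14 (343 to 380) and TIMP1 (243 to 340) over the libraries did not overlap on this scale, whereas those of MMP1, MMP3 and MMP11 did. The membrane protease MMP14 and the inhibitors TIMP1 and TIMP2 were thus the abundant mRNAs, and the secreted collagenase and stromelysins were scarce.

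MMP1, the interstitial collagenase that cuts fibrillar collagen, was highest in starved cells without a compound. Its level was 10.46 and 11.01 CPM in the NC libraries and 4.78 and 5.93 CPM in the PC libraries. It was 7.20, 5.50 and 6.21 CPM with RES, 6.57, 5.92 and 7.10 CPM with POG, and 4.62 and 6.34 CPM with DEG. Every NC library was above every library of the other groups, whose ranges all overlapped one another. The log2 fold change against NC was −1.01 for PC (95% interval −1.29 to −0.73, exact test FDR 1.90e-12), −0.77 for RES (−1.01 to −0.52, FDR 2.09e-08), −0.72 for POG (−0.96 to −0.47, FDR 1.25e-07) and −0.97 for DEG (−1.25 to −0.69, FDR 2.78e-10). MMP1 had 3488 reads over the 12 libraries. In RNA from whole cultures, fewer cells that express a gene and less mRNA per cell cannot be told apart.

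MMP3, stromelysin 1, which cuts proteoglycans and activates other proMMPs, had the same order of controls. The NC libraries held 11.9 and 12.6 CPM, and the PC libraries 5.93 and 5.55 CPM. It was 5.20, 5.57 and 5.74 CPM with RES, 5.44, 5.28 and 4.26 CPM with POG, and 4.96 and 4.45 CPM with DEG. NC again lay apart from and above all other libraries, and the lowest value was in a POG library. Against NC, MMP3 fell by 1.09 on the log2 scale in PC (95% interval −1.32 to −0.86, exact test FDR 1.33e-20) and by 1.15 with RES (−1.36 to −0.94, FDR 1.33e-26). It fell by 1.29 with POG (−1.51 to −1.08, FDR 2.70e-33) and by 1.38 with DEG (−1.62 to −1.13, FDR 3.31e-28). These were the largest falls among the 9 genes in each of the 4 comparisons.

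MMP10, stromelysin 2 and the closest relative of MMP3 in this set, had 17 reads in all. The NC libraries held 5 and 1 reads, the PC libraries 0 and 3, the POG libraries 2, 1 and 2, and the DEG libraries 1 and 2. RES had 0 reads in 3 libraries, which together allow up to 0.0224 CPM when 3 reads are taken as the limit. With no filter on low counts it was called in no comparison by the exact test, and the smallest p was 0.0367 (FDR 0.303), for RES against NC. Differences in MMP10 were not detectable at this depth.

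**Figure D2:**
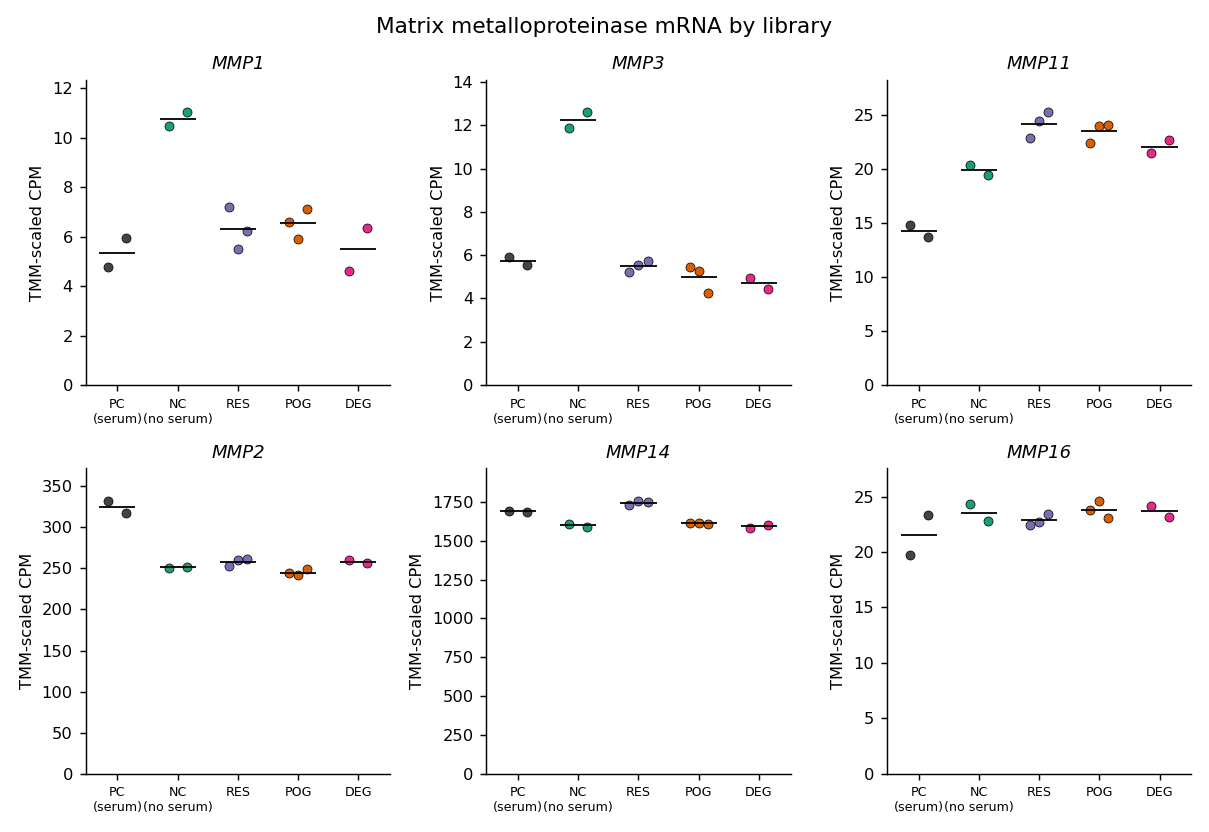
Level of each tested MMP in CPM (y axis, on a scale of its own in each panel and starting at 0) for every library of PC, NC, RES, POG and DEG, where points are libraries and horizontal lines are group means. MMP1 and MMP3 are highest in the 2 NC libraries, and MMP11 and MMP2 are set apart in PC.

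MMP2, the gelatinase that degrades denatured collagen and basement membrane collagen, was higher with serum. It was at 332 and 318 CPM in PC and at 250 and 252 CPM in NC. The compound libraries lay between 242 and 261 CPM, close to NC. PC exceeded NC by 0.37 on the log2 scale (95% interval 0.31 to 0.44, exact test FDR 4.41e-22). None of the compounds passed the test against NC, and the 95% intervals ran from −0.02 to 0.10 for RES, from −0.10 to 0.03 for POG and from −0.03 to 0.11 for DEG.

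MMP11, stromelysin 3, which is activated inside the cell by furin, was lowest with serum. The PC libraries held 14.8 and 13.7 CPM and the NC libraries 20.4 and 19.4 CPM. With RES it was 22.8, 24.5 and 25.2 CPM, with POG 22.4, 24.0 and 24.1 CPM, and with DEG 21.4 and 22.7 CPM. The PC range lay below and the compound ranges above that of NC. MMP11 fell by 0.48 in PC (log2, 95% interval −0.63 to −0.33, exact test FDR 2.12e-09), and rose by 0.28 with RES (0.15 to 0.41, FDR 6.30e-04) and by 0.24 with POG (0.11 to 0.37, FDR 0.00391). For DEG the difference was 0.15 (0.00 to 0.29) at FDR 0.231, which did not pass. Without NC replicate 2 the log2 difference was 0.25 for RES and 0.21 for POG, and both calls were lost. That fit left 1 NC library, and the part of the smaller group in the loss was not tested.

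MMP14, the membrane-type protease that activates proMMP2 at the cell surface and itself cuts fibrillar collagen, had the highest level per kilobase of the 7 MMPs in every library. It was at 1691 and 1689 CPM in PC, 1610 and 1590 CPM in NC, 1733, 1756 and 1752 CPM with RES, 1618, 1617 and 1605 CPM with POG, and 1585 and 1601 CPM with DEG. RES stood above all other groups, PC came next, and the NC range overlapped those of POG and DEG. RES exceeded NC by 0.13 on the log2 scale (95% interval 0.08 to 0.17, exact test FDR 5.30e-04). The PC difference of 0.08 (0.03 to 0.13, FDR 0.0363) was lost with plain library totals (FDR 0.394), with no filter (FDR 0.148), with dispersions from the groups compared alone (FDR 0.322) and without NC replicate 1 (FDR 0.0979) or replicate 2 (FDR 0.159). The intervals against NC were −0.03 to 0.06 for POG and −0.05 to 0.04 for DEG.

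MMP16, another membrane-type MMP, was close in all 5 groups. Its level over all libraries ran from 19.7 CPM in a PC library to 24.6 CPM in a POG library, and the PC libraries themselves were 19.7 and 23.3 CPM. The group ranges of each compound overlapped that of NC, and no comparison with NC passed the exact test. Without PC replicate 2, the log2 difference of PC from NC was −0.25 (exact test FDR 0.00676), against −0.13 (FDR 0.147) with both, and without PC replicate 1 it was −0.0078 (FDR 0.993). With plain library totals it was −0.18 (FDR 0.0453).

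TIMP3, the inhibitor that stays bound to the matrix and also blocks ADAM and ADAMTS proteases, had the largest change of the inhibitors and moved in opposite directions with serum and with 2 of the compounds. It was at 147 and 156 CPM in PC and at 81.8 and 82.9 CPM in NC. With RES it was 82.9, 86.3 and 85.7 CPM, with POG 47.7, 47.4 and 47.2 CPM, and with DEG 54.0 and 54.8 CPM. PC lay above all other libraries, RES beside NC, and POG and DEG below, with no overlap between any of PC, NC, POG and DEG. PC exceeded NC by 0.88 on the log2 scale (95% interval 0.80 to 0.96, exact test FDR 1.54e-88). TIMP3 fell by 0.79 with POG (−0.88 to −0.71, FDR 5.31e-74) and by 0.60 with DEG (−0.69 to −0.51, FDR 1.45e-33). With RES the difference was 0.05 (−0.03 to 0.12, FDR 0.578). Without PC replicate 1 or 2 the PC value was 0.93 or 0.85. The summed level of the 3 endothelial markers also differed between groups, at 55.1 to 58.3 CPM in PC, 41.6 to 43.5 CPM in NC, 51.8 to 58.4 CPM in RES, 34.5 to 37.1 CPM in POG and 37.3 to 37.8 CPM in DEG. TEK made up most of that sum, at 33.1 to 56.8 CPM, the defining marker CDH5 was at 0 to 0.112 CPM, and PECAM1 was at 1.08 to 2.47 CPM. The sum of the 9 osteoblast markers was 5521 to 5580 CPM in PC, 5302 to 5360.5 CPM in NC, 4942 to 5068 CPM in RES, 4777 to 4811 CPM in POG and 4792 to 4796 CPM in DEG. That of the 3 blood cell markers was 1.42 to 1.52 CPM in PC, 0.878 to 0.955 CPM in NC, 1.10 to 1.28 CPM in RES, 0.295 to 0.732 CPM in POG and 0.646 to 0.789 CPM in DEG, with CD3E at 0 in every library. The chondrocyte sum was 6.47 to 6.54 CPM in PC, 2.94 to 5.15 CPM in NC, 3.75 to 4.36 CPM in RES, 2.36 to 2.69 CPM in POG and 2.80 to 3.90 CPM in DEG. The osteoclast sum was instead lowest in PC, at 11.902 to 11.9996 CPM, and was 12.655 to 13.05 CPM in NC. It was 14.9 to 16.2 CPM in RES, 13.38 to 14.3 CPM in POG and 13.30 to 13.36 CPM in DEG. The epithelial sum was 0.546 to 0.688 CPM in PC, 0.377 to 0.491 CPM in NC and 0.335 to 0.673 CPM in RES. It was 0.344 to 0.555 CPM in POG and 0.258 to 0.356 CPM in DEG. The part of these markers in the TIMP3 result was not tested.

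TIMP1, a secreted inhibitor of most soluble MMPs, had the highest level per kilobase of the 3. It was at 492 and 450 CPM in PC, 385 and 397 CPM in NC, 377, 376 and 385 CPM with RES, 351, 355 and 361 CPM with POG, and 379 and 386 CPM with DEG. PC was highest and POG lowest, DEG overlapped NC, and RES lay just below NC. PC exceeded NC by 0.27 on the log2 scale (95% interval 0.20 to 0.34, exact test FDR 1.87e-10), and POG was lower by −0.14 (−0.20 to −0.07, FDR 0.00223). Without NC replicate 2 the POG call was lost (FDR 0.140). RES (−0.11 to 0.02) and DEG (−0.10 to 0.04) did not pass against NC.

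TIMP2, the inhibitor that also takes part with MMP14 in activating proMMP2, was highest in NC. The levels were 969 and 950 CPM in NC, 874 and 861 CPM in PC, 887, 936 and 941 CPM with RES, 845, 851 and 853 CPM with POG, and 819 and 808 CPM with DEG. DEG was the lowest group and did not overlap any other. TIMP2 fell by 0.15 in PC (log2, 95% interval −0.20 to −0.09, exact test FDR 2.07e-04), by 0.18 with POG (−0.23 to −0.12, FDR 2.48e-06) and by 0.24 with DEG (−0.30 to −0.18, FDR 3.29e-09). For RES the difference was −0.06 (−0.11 to −0.01) at FDR 0.270. TIMP2 exons overlap those of CEP295NL over 224 bases on the same strand, and those of another gene over 367 bases on the opposite strand. Part of the TIMP2 reads could thus be assigned otherwise by another counting.

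**Figure D3:**
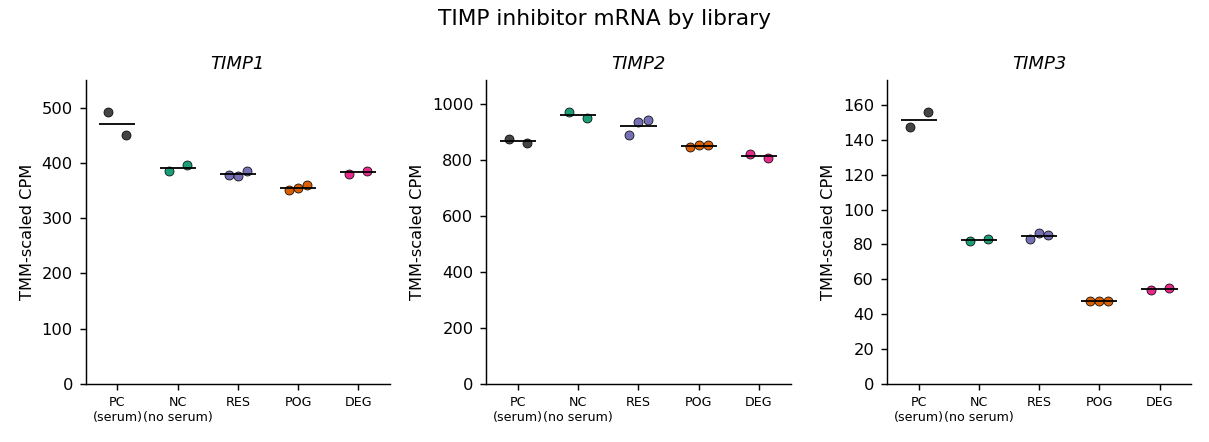
Level of each TIMP in CPM (y axis, on a scale of its own in each panel and starting at 0) for every library of the 5 groups, where points are libraries and horizontal lines are group means. TIMP3 ranges from 47.2 CPM in a POG library to 156 CPM in a PC library, TIMP1 is highest in PC, and TIMP2 is highest in NC.

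The compounds were given at the same dose and were compared with each other in 3 pairs, each with FDR over all 17092 genes and not adjusted further over the pairs. POG and RES differed in 5 of the 9 genes, where 27.9% of all tested genes did. TIMP3 was lower with POG by −0.84 on the log2 scale (95% interval −0.91 to −0.77, exact test FDR 4.71e-105). The other 4 calls were of small size, at −0.12 for TIMP2 (FDR 5.09e-04), −0.11 for MMP14 (FDR 1.29e-04), −0.09 for TIMP1 (FDR 0.0183) and −0.08 for MMP2 (FDR 0.0469). The MMP2 call was lost on leaving out any POG library, RES replicate 2 or RES replicate 3 (FDR 0.0625 to 0.185), and the TIMP1 call on leaving out RES replicate 3, POG replicate 1 or POG replicate 2 (FDR 0.0705 to 0.101).

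DEG and RES differed in 3 of the 9 genes, against 21.2% of all tested genes. TIMP3 was lower with DEG by −0.64 (log2, 95% interval −0.72 to −0.56, exact test FDR 1.40e-47), TIMP2 by −0.18 (−0.23 to −0.13, FDR 1.27e-06) and MMP14 by −0.13 (−0.18 to −0.09, FDR 1.02e-04). DEG and POG differed in 1 of the 9, against 1.05% of all tested genes. That gene was TIMP3, higher with DEG by 0.20 (0.11 to 0.28, exact test FDR 0.00377), and the call was lost without DEG replicate 1 (FDR 0.0899) or replicate 2 (FDR 0.191). For MMP1 and MMP3 no pair of compounds passed the test, and the 95% intervals of the log2 difference ran from −0.52 to 0.28 for MMP1 and from −0.47 to 0.16 for MMP3 over the 3 pairs.

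Against serum-fed cells, the calls numbered 5 of 9 for RES (45.7% of all tested genes), 5 of 9 for POG (47.9%) and 6 of 9 for DEG (43.4%), and these comparisons share the PC libraries. TIMP3 was below PC by −0.83 on the log2 scale with RES (95% interval −0.91 to −0.76), −1.67 with POG (−1.75 to −1.60) and −1.48 with DEG (−1.56 to −1.39). MMP2 was lower by −0.33, −0.41 and −0.33, and TIMP1 by −0.31, −0.41 and −0.30, in the same order. MMP11 was higher by 0.76, 0.72 and 0.63, and all of these passed the exact test. MMP1 and MMP3 passed in none of the 3, with differences from PC of 0.24 (−0.02 to 0.51), 0.29 (0.03 to 0.56) and 0.04 (−0.26 to 0.34) for MMP1 and of −0.06 (−0.29 to 0.17), −0.20 (−0.43 to 0.03) and −0.29 (−0.55 to −0.03) for MMP3. These MMP1 results hung on the processing. POG passed with plain library totals (FDR 0.0143), with no filter (FDR 0.0286), with dispersions from the groups compared alone (FDR 0.0494) and without PC replicate 2 (FDR 0.00495) or POG replicate 2 (FDR 0.0264), and RES passed with plain library totals (FDR 0.0406) and without PC replicate 2 (FDR 0.0153) or RES replicate 2 (FDR 0.0420). The remaining calls, of TIMP2 for RES (0.09) and DEG (−0.09) and of MMP14 for POG (−0.07) and DEG (−0.09), were small and were lost in some alternatives.

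The summed levels of the 7 MMPs and of the 3 TIMPs were set side by side per kilobase, a summary chosen after the values had been seen and given with no test. The sums leave out other expressed family genes, among them MMP17 (mean 20.2 CPM over all libraries), MMP19 (16.7 CPM) and MMP15 (10.6 CPM). The ratio of the sums depends on the merged exon lengths used, such as 1446 bases for TIMP1. The MMP sum was 444 ± 2.13 CPM per kilobase in PC (SD, n = 2), 416 ± 2.57 in NC (n = 2), 445 ± 3.66 in RES (n = 3), 413 ± 0.974 in POG (n = 3) and 410 ± 2.33 in DEG (n = 2). The TIMP sum was 499 ± 20.5 in PC, 443 ± 3.83 in NC, 429 ± 7.22 in RES, 393 ± 3.85 in POG and 408 ± 2.19 in DEG. MMP14 supplied 82.3% of the MMP sum in PC and 85.0% in RES, the lowest and highest of the group means. The ratio of the MMP sum to the TIMP sum ran from 0.869 to 0.948 in the PC and NC libraries and from 1.01 to 1.06 in the libraries given a compound. TIMP3 made up 6.62 ± 0.541% of the TIMP sum in PC, 4.04 ± 0.00239% in NC, 4.31 ± 0.0597% in RES, 2.63 ± 0.0400% in POG and 2.90 ± 0.0152% in DEG.

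**Figure D4:**
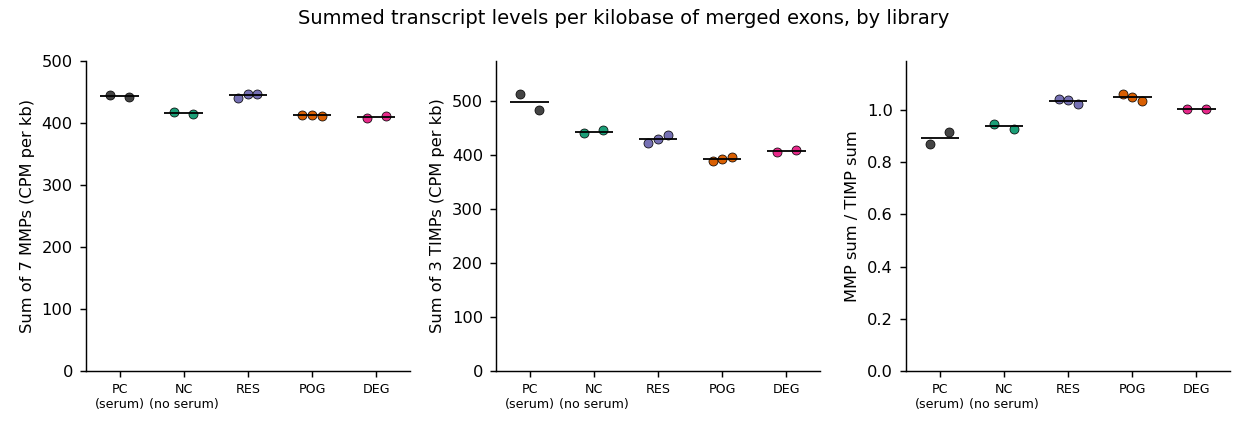
Summed level of the 7 MMPs and of the 3 TIMPs in CPM per kilobase of merged exons, and the ratio of both sums (y axes, starting at 0), for every library of the 5 groups, with group means as horizontal lines. The ratio lies between 0.869 and 0.948 in PC and NC and between 1.01 and 1.06 with a compound.

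Of 17 other genes of both families, 9 were expressed enough to test, and 1 was called in each comparison with NC, where 42.4% (PC), 11.2% (RES), 14.5% (POG) and 9.63% (DEG) of all tested genes were. MMP13, collagenase 3, was at 1.13 ± 0.249 CPM in NC (SD, n = 2), 0.223 ± 0.114 CPM in PC (n = 2) and 0.436 ± 0.113 CPM with DEG (n = 2), and fell by 2.30 in PC (log2, 95% interval −3.10 to −1.49, exact test FDR 4.28e-09) and by 1.37 with DEG (−2.12 to −0.63, FDR 0.00150). The DEG call was lost without NC replicate 2 (FDR 0.110) or DEG replicate 2 (FDR 0.108). MMP19 rose by 0.33 with POG (0.17 to 0.48, FDR 4.30e-04), from 15.2 to 19.0 CPM, a call lost without NC replicate 2 (FDR 0.0626). The call in RES was MMP23B at 1.42 (FDR 0.0389), which was under 1 CPM in every library, was lost in several alternatives, and is named here because it was the only call.

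Among 16 activators and regulators of MMPs, 13 were tested. In PC, 6 were higher and 1 lower than in NC, where 42.4% of all tested genes were called. PLAT, the tissue plasminogen activator, rose by 1.18 on the log2 scale (exact test FDR 1.16e-150), from 115 to 259.5 CPM. The matricellular THBS2 rose by 0.53 (exact test FDR 1.96e-15), TFPI2, a serine protease inhibitor of the matrix, rose by 0.44 (FDR 4.73e-37) and LRP1, a receptor that clears MMPs, fell by 0.47 (FDR 1.53e-20). With RES, 4 were higher and 1 lower (11.2% of all tested genes called). PLAT rose by 0.32 (exact test FDR 6.97e-12), the urokinase receptor PLAUR by 0.20 (FDR 1.28e-06), urokinase itself, PLAU, by 0.16 (FDR 1.72e-04) and TFPI2 by 0.12 (FDR 0.00274), and THBS1 fell by 0.38 (FDR 8.19e-18). Leaving out NC replicate 1 removed the RES calls of PLAU (log2 difference 0.12) and TFPI2 (0.11). The RES call of TFPI2 was also lost without NC replicate 2 (0.12).

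With POG, 7 of the 13 were lower and 0 higher (14.5% of all tested genes called in either direction), and with DEG 3 were lower and 0 higher (9.63%). THBS1, thrombospondin 1, was at 191 ± 3.46 CPM in NC (SD, n = 2), 99.6 ± 1.90 CPM with POG (n = 3) and 117 ± 1.29 CPM with DEG (n = 2), and fell by 0.94 with POG (log2, exact test FDR 1.02e-110) and by 0.71 with DEG (FDR 3.78e-50). PLAU fell by 0.34 with POG (exact test FDR 1.11e-19) and by 0.31 with DEG (FDR 6.20e-13), and TFPI2 by 0.25 (FDR 6.44e-14) and 0.16 (FDR 9.24e-05). FURIN, the convertase that activates MMP11 and MMP14, fell by 0.13 with POG (exact test FDR 0.00285). Without NC replicate 2 the FURIN call was lost (FDR 0.178). The other 3 genes lower with POG were PLAT, PLAUR and LRP1, at −0.11, −0.10 and −0.13, named after their values were seen. Their calls were each lost with plain library totals (FDR 0.141, 0.163 and 0.109), without NC replicate 2 (FDR 0.791, 0.303 and 0.398) and on leaving out any POG library (FDR 0.0720 to 0.163 over the 3 genes). PLAUR and LRP1 were also lost without NC replicate 1 (FDR 0.197 and 0.0631), PLAT and PLAUR with no filter (FDR 0.111 and 0.159), and PLAT and LRP1 with DESeq2 (FDR 0.0545 and 0.186). PLAU and PLAT code for the proteases that make plasmin, an activator of several proMMPs, from plasminogen. PLG, the plasminogen gene and part of the same list, had 0 reads in every library. The median log2 fold change of the 13 genes was 0.07 in PC, 0.09 in RES, −0.11 in POG and −0.09 in DEG.

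**Figure D5:**
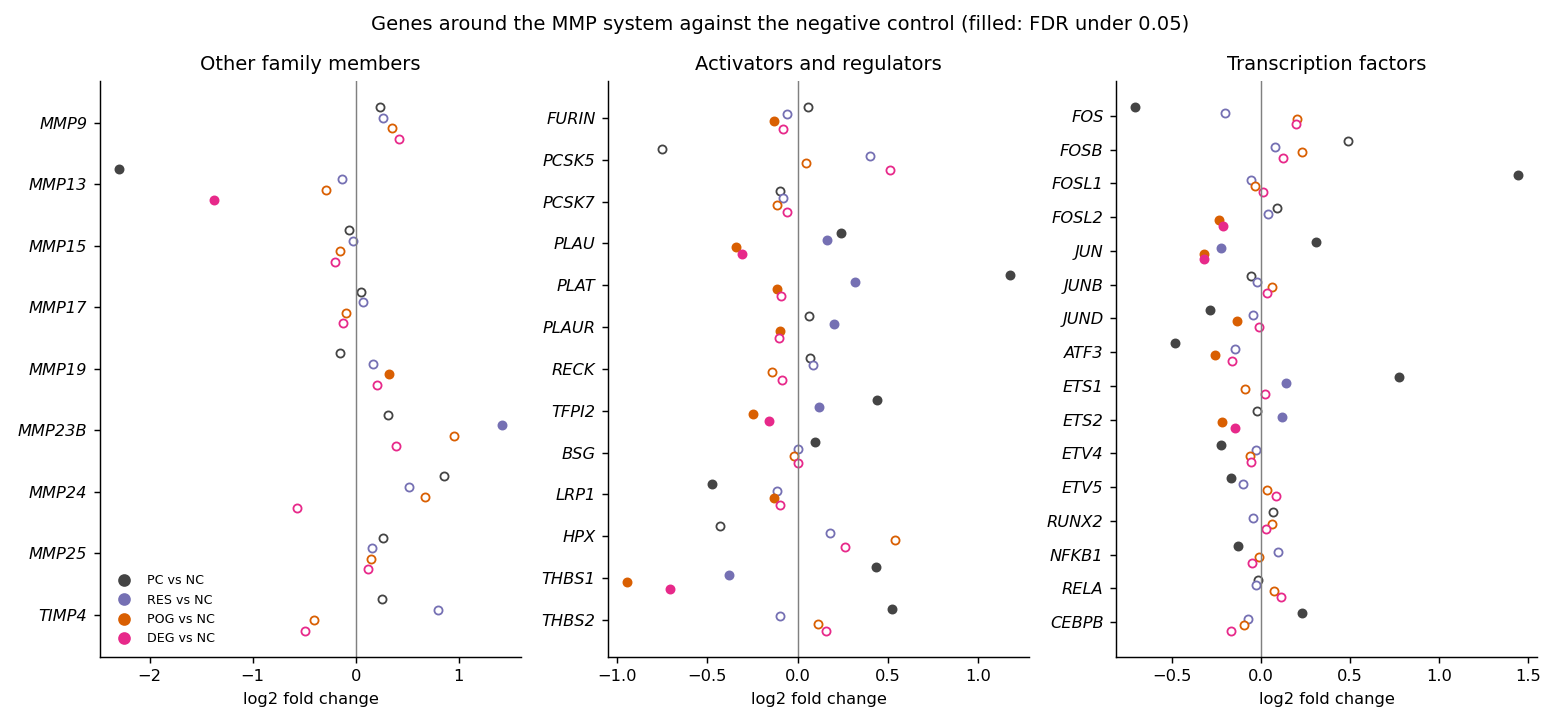
Log2 fold change against NC (x axis) of every tested gene among the other family members, the activators and regulators, and the transcription factors, in PC, RES, POG and DEG, where filled points are at an exact test FDR under 0.05. THBS1 lies at −0.94 in POG, −0.71 in DEG and −0.38 in RES, and PLAT reaches 1.18 in PC.

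All 16 transcription factors listed as regulators of MMP promoters were tested. In PC, 4 were higher and 6 lower than in NC (42.4% of all tested genes called), among them FOSL1 at 1.45 (log2, exact test FDR 2.98e-258), ETS1 at 0.78 (FDR 1.18e-69), FOS at −0.71 (FDR 4.68e-10) and ATF3 at −0.49 (FDR 1.08e-13). FOSL1 and FOS code for AP-1 subunits that pair with JUN proteins, so members of this complex moved both ways with serum. With RES, 2 were higher and 1 lower (11.2%). JUN fell by 0.23 (FDR 3.68e-08), ETS1 rose by 0.14 (FDR 0.00968) and ETS2 rose by 0.12 (FDR 0.0282). With POG 5 were lower and 0 higher (14.5%), at −0.32 for JUN (FDR 7.66e-17), −0.26 for ATF3 (FDR 8.80e-05), −0.23 for FOSL2 (FDR 1.16e-08), −0.22 for ETS2 (FDR 7.38e-07) and −0.13 for JUND (FDR 0.00480). With DEG 3 were lower and 0 higher (9.63%), at −0.32 for JUN (FDR 2.43e-13), −0.21 for FOSL2 (FDR 8.23e-06) and −0.15 for ETS2 (FDR 0.0106). Without NC replicate 1 the RES calls of ETS1 (0.11) and ETS2 (0.08) and the POG call of JUND (−0.12) were lost. The RES call of ETS1 was also lost without RES replicate 3 (exact test FDR 0.0643). That of ETS2 was also lost without RES replicate 2 (exact test FDR 0.0999) or replicate 3 (FDR 0.160) and with no filter (FDR 0.0554). For ETS2 in DEG the difference was −0.11 without NC replicate 2, −0.13 without DEG replicate 1 and −0.16 without DEG replicate 2. The DEG call of ETS2 was lost in each of these fits.

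Across the 12 libraries, which share the 5 groups and so are not independent points, the log2 CPM of TIMP3 was most like that of FRMD6 (Pearson r = 0.995), CDCP1 (0.994) and AMIGO2 (0.994) among 13406 genes of at least 1 CPM. The genes most like MMP2 were TAGLN (0.990), MYADM (0.988) and CCDC85C (0.988), and those most like TIMP1 were PCBP1 (0.982), CAVIN1 (0.977) and CCDC86 (0.976). For MMP1 they were TEAD2 (0.902), RELL1 (0.873) and CEMIP (0.860), and for MMP3 TPBG (0.943), TTYH3 (0.941) and FZD8 (0.931). The closest to MMP11 were BTN3A2 (0.976), DMKN (0.975) and SEPTIN8 (0.972), to MMP14 SP100 (0.971), ELFN2 (0.960) and C9orf64 (0.947), to MMP16 LMTK2 (0.927), USP22 (0.926) and VPS13D (0.921), and to TIMP2 SECTM1 (0.981), GPR137 (0.958) and PIGQ (0.938). Between the members themselves, the highest r were 0.95 for MMP2 with TIMP1, 0.88 for TIMP1 with TIMP3, 0.85 for MMP2 with TIMP3 and 0.77 for MMP1 with MMP3. The lowest were −0.88 for MMP11 with TIMP1 and −0.87 for MMP2 with MMP11.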

How the data were processed

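Poly-A mRNA was sequenced from the 12 libraries. The authors aligned reads to hg38 with STAR and counted Ensembl genes with featureCounts, and deposited raw counts per gene (versions, annotation release, strand setting and multi-mapped reads not given in the sources used here). MMP and TIMP genes and the gene lists were chosen with earlier results of these data known. Counts were scaled by TMM in edgeR 4.0.16 (R 4.3.3), filtered with filterByExpr and compared with the exact test, with dispersions from all 12 libraries and Benjamini-Hochberg adjustment over 17092 genes. Log2 fold changes came from the exact test, and their 95% intervals from a quasi-likelihood fit of the same counts. Alternatives were that fit's test, DESeq2 1.42.0, other scalings, filters and dispersions, and leaving out each library. Named list genes were at most 4 per comparison, those with the largest changes among called genes of at least 1 CPM, and TFPI2 in RES, JUND, PLAT, PLAUR and LRP1 in POG and MMP23B in RES were added after their values were seen. Genes most alike were the 3 with the highest Pearson r. The procedure was run on simulated data in which all groups had the same spread, so that run does not cover the wider spread of PC. A further gene of the activator list is not reported here.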

Additional observations from a re-analysis of the deposited data

How the results depend on the processing

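The number of MMP and TIMP genes called moved by more than 1.5 times in these alternatives. With dispersions from the 2 groups compared alone, DEG against POG gave 4 calls where 1 was made. With plain library totals, RES against PC gave 8 where 5 were made, and the log2 difference of MMP14 between POG and PC changed from −0.07 to 0.00027. Leaving out 1 library moved POG against RES from 5 calls to 3 (RES replicate 3, POG replicate 1 or POG replicate 2) and DEG against POG from 1 to 0 (either DEG replicate). Over all such fits the calls ranged from 7 to 9 for PC against NC, 3 to 4 for RES against NC, 4 to 6 for POG against NC, 4 to 4 for DEG against NC, 3 to 5 for POG against RES, 3 to 3 for DEG against RES, 0 to 1 for DEG against POG, 4 to 7 for RES against PC, 4 to 7 for POG against PC and 4 to 7 for DEG against PC. Over single members and comparisons, leaving out a library kept 400 values on their side of the threshold, removed 24 calls and added 8, and the other alternatives kept 604, removed 13, added 12 and reversed 1. The falls of MMP1 and MMP3 against NC in all 4 groups, and the TIMP3 differences of PC, POG and DEG from NC, kept direction and call in every alternative. The causes of the changes were not tested. Depth limits MMP10 most, and MMP1 and MMP3 next. No paired analysis was possible because the labels give no replicate numbers.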
